A study of Homo sapiens with 10 samples.

Results

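NF-kB is a family of dimeric transcription factors built from 5 subunits, and the genes described here are those 5 (NFKB1, NFKB2, RELA, RELB and REL) with 5 of the proteins that NF-kB induces and that act back on its signalling: NFKBIA, NFKBIE, TNFAIP3, TRAF1 and BIRC3. They were chosen by gene symbol, with earlier results of these data known, and all 10 were found among the 16734 genes of the deposited table. Messenger RNA was sequenced from MIA PaCa-2, an established human pancreatic ductal adenocarcinoma line. Of the 10 libraries, 5 were from cells given 10 µM hydroxyprogesterone caproate (HPC), a synthetic progestin ester, and 5 from cells given the same volume of its solvent, DMSO, both for 24 h. Both groups were grown in DMEM with fetal bovine serum, penicillin and streptomycin, with no inflammatory stimulus named in the labels. Replicates are named as biological in the labels, with no culture, day or batch, so a p-value here reflects the spread among these libraries of 1 cell line only.

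In resting cells NF-kB dimers are held in the cytoplasm by IkB proteins. In the canonical branch, signals from TNF and interleukin-1 receptors activate the IKK kinase complex, which marks IkB for destruction and frees dimers of p50 (from NFKB1) with RELA or REL. In the non-canonical branch, the kinase NIK acts through IKK-alpha to trim the NFKB2 product p100 to p52, which pairs with RELB. The freed dimers switch on their own inhibitors and several of their own subunits, which makes the transcript levels of these genes a common readout of the pathway, although activity itself rests on protein localisation and phosphorylation that RNA does not measure.

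In these libraries the transcripts of NFKB2, RELB and RELA, of the adaptor TRAF1 and of the ubiquitin ligase BIRC3 were higher with HPC, by 1.78-fold (RELA) to 7.74-fold (TRAF1), with no overlap between the groups. TNFAIP3 had low deposited values in both groups, a level that depends on the gene length used, as described below. All 5 of its HPC values were above all 5 of its DMSO values. REL was higher by 1.20-fold with overlapping groups. NFKB1, NFKBIA and NFKBIE did not pass the test, and their fold changes were 1.04, 1.04 and 1.07.

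The values are FPKM, that is fragments counted on a gene, divided by its length and by the size of the library. Differences were tested with limma on log2(FPKM + 0.1), over the 9150 genes that reached 1 FPKM in 5 or more libraries, and p-values were adjusted by Benjamini-Hochberg over all of them. A gene was called at an adjusted p under 0.05. Fold changes are on the log2(FPKM + 0.1) scale, which understates the change of low genes. Of the 10 members 9 were tested, each with at least 1 FPKM in every library; 6 were called higher and 0 lower. Most tested genes differed between the groups: 42.9% of all tested genes were called higher and 44.8% lower, so a call by itself sets no gene apart. The members were chosen with earlier results of these data known, so the shares and medians that follow are a description. At least 2-fold higher were 4 of the 9 tested members, against 7.54% of all tested genes. The median log2 fold change was 0.83 over the 9 tested members and -0.01 over all tested genes. All 5 HPC values lay above all 5 DMSO values for 5 of the 9, against 38.5% of all tested genes, and all below for 0 of the 9, against 41.1%.

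The libraries held 71602736 to 82218527 reads in DMSO and 65851176 to 74477071 in HPC, as recovered from the steps of the FPKM values. Log2 values correlated at 0.989 to 0.994 between libraries of a group and at 0.842 to 0.863 between groups. The 13 genes encoded by mitochondria held 21.9 to 23.8% of the FPKM total in DMSO and 13.8 to 15.9% in HPC. When libraries were scaled to the sum of the other genes, the median of all tested genes moved to -0.18, and each member moved by a like amount. Of the defining epithelial markers, KRT18 (109 to 119 FPKM in DMSO, 148 to 156 in HPC) and KRT8 were high in both groups, and EPCAM and CDH1 were under 0.1 FPKM in every library. The other 4 had lower values in every HPC library than in any DMSO library: KRT19 (22.2 to 26.6 and 8.71 to 11.2), CLDN4 (22.5 to 25.1 and 7.41 to 8.28), MUC1 (0.737 to 0.903 and 0.0462 to 0.0884) and KRT7 (0.177 to 0.264 and 0.00366 to 0.0663). Of 6 leukocyte markers read from the table, PTPRC and CSF1R were under 0.1 FPKM in every library; the summed level of the 6 was 3.70 to 4.51 FPKM in DMSO and 8.51 to 11.2 in HPC, most of it CD68 (2.37 to 3.34 and 8.33 to 10.9). The other 3 had lower values in HPC: CD14 (0.394 to 0.567 and 0 to 0.118), CD79A (0.208 to 0.404 and 0 to 0.143) and LYZ (0.339 to 0.590 and 0.0220 to 0.0876). The 3 endothelial markers in the table summed to 1.43 to 1.53 FPKM in DMSO and 0.0152 to 0.0368 in HPC, with PECAM1 and VWF under 0.1 everywhere. The 5 fibroblast markers summed to 24.5 to 26.7 and 0.762 to 1.05 FPKM, nearly all of it COL1A2, with the other 4 under 0.1 everywhere, and the mesenchymal marker VIM measured 682 to 718 and 322 to 346. The part of these markers in the members' values was not tested, and in bulk RNA fewer cells of a type and less RNA per cell cannot be told apart.

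The DNA letters that NF-kB dimers read are the κB sites, 10-base sequences that begin with a run of G and end with a run of C. They are shown because these genes are textbook targets of their own products. RefSeq promoter windows on GRCh38.p14, from 250 bases before to 50 bases after a transcript start, were found for 8 of the 10 members, RELB and NFKBIE being the exceptions. At least 1 match to the κB consensus, on either strand, lay in windows of 6 of the 8: NFKB1, NFKB2, REL, NFKBIA, TNFAIP3 and BIRC3. Over all windows of the same length 11.3% of 35116 held a match, and 13.3% of 27305 genes had one in any of their windows. The capitals mark the match, read 5′ to 3′ on the gene's own strand, with 15 bases on either side.
NFKB1, chr4:102501295-102501334, plus strand: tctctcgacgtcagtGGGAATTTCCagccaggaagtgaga
NFKB2, chr10:102394456-102394495, plus strand: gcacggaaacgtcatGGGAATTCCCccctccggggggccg
REL, chr2:60881512-60881551, plus strand: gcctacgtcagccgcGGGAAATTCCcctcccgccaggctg
NFKBIA, chr14:35404806-35404845, minus strand: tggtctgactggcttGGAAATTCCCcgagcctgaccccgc
TNFAIP3, chr6:137867177-137867216, plus strand: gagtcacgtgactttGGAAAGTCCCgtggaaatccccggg
BIRC3, chr11:102317270-102317309, plus strand: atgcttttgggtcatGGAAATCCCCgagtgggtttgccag

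The matches shown began 49 bases before the start in NFKB1, 107 in NFKB2, 47 in REL, 81 in NFKBIA, 67 in TNFAIP3 and 199 in BIRC3. NFKB1 and NFKBIA hold the same 10 letters on opposite strands, GGGAATTTCC, and REL holds them 1 base after the match shown, on the other strand. NFKB2 held further matches in this window and in another of its windows, and TNFAIP3 and BIRC3 each held 1 more. The windows of RELA and TRAF1 held none, which says only that these letters are not there. A match is a description and not evidence of binding. Of the members with a match, NFKB2, REL and BIRC3 were called higher, and NFKB1 and NFKBIA were not called. TNFAIP3, which also had a match, was left out of the fit and had higher values in HPC. RELA and TRAF1, without a match, were called higher, and TRAF1 had the highest fold change of the tested members. Whether a match goes with a change was not tested.

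**Figure D1:**
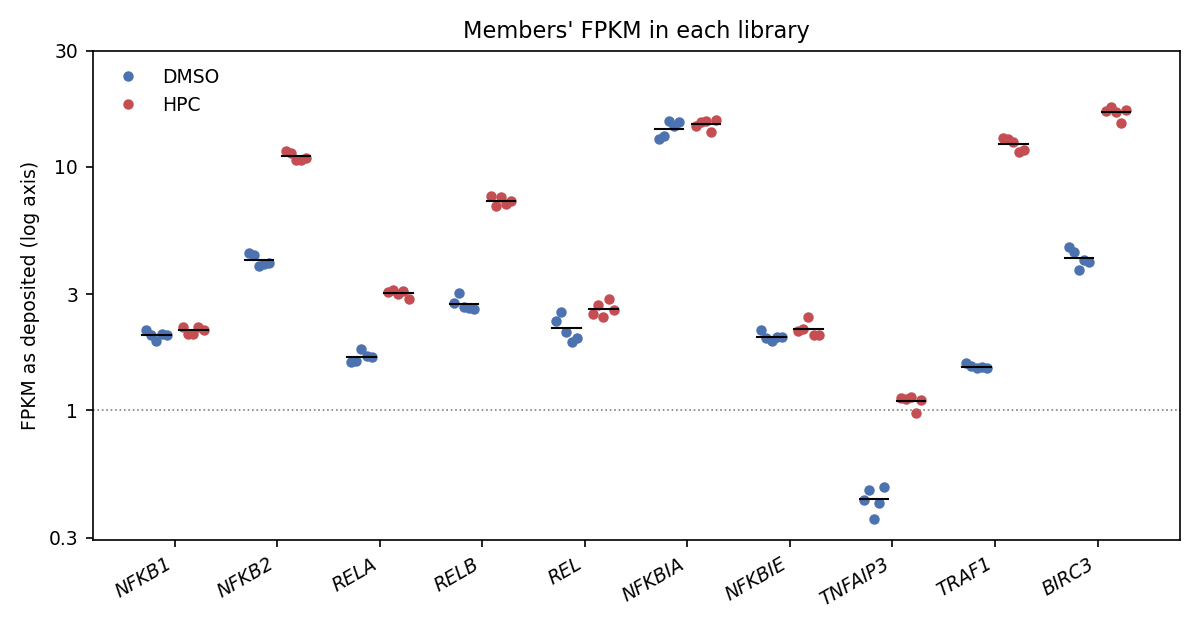
Deposited FPKM (log axis) of the 10 members in each library, DMSO in blue and HPC in red, with black lines at the group means and a dotted line at 1 FPKM. The red points of NFKB2, RELA, RELB, TNFAIP3, TRAF1 and BIRC3 all lie above the blue ones, and those of NFKB1, REL, NFKBIA and NFKBIE overlap them.

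Among the subunits, both genes of the non-canonical pair were higher. NFKB2 (ENSG00000077150, chromosome 10, 102394110 to 102402529, plus strand, GRCh38 with GENCODE 29), which encodes p100 and its product p52, measured 4.42, 4.35, 3.90, 4.00 and 4.03 FPKM in DMSO libraries 1 to 5 and 11.7, 11.4, 10.7, 10.7 and 10.9 in HPC libraries 1 to 5. The lowest HPC value was over 2-fold the highest DMSO value. The mean went from 4.14 ± 0.23 to 11.1 ± 0.441 FPKM (SD, n = 5), a log2 fold change of 1.40 ± 0.041 (SE, adjusted p = 1.56e-12), and 3.93% of the tested genes had a larger one. RELB (ENSG00000104856, chromosome 19, 45001430 to 45038198, plus strand), the partner of p52, measured 2.75, 3.02, 2.65, 2.64 and 2.60 FPKM in DMSO and 7.57, 6.89, 7.53, 7.04 and 7.23 in HPC. These groups were also far apart, with means of 2.73 ± 0.172 and 7.25 ± 0.30 FPKM and a log2 fold change of 1.38 ± 0.044 (adjusted p = 3.95e-12). The intervals of NFKB2 (95%, 1.31 to 1.48) and RELB (1.28 to 1.47) overlapped.

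The canonical subunits were less alike. RELA (ENSG00000173039, chromosome 11, 65653596 to 65663094, minus strand), which carries the main activation domain of the canonical dimer, measured 1.59, 1.59, 1.79, 1.66 and 1.65 FPKM in DMSO and 3.06, 3.12, 3.00, 3.09 and 2.88 in HPC. Each HPC value was above each DMSO value, with means of 1.66 ± 0.0822 and 3.03 ± 0.0951 FPKM and a log2 fold change of 0.83 ± 0.040 (adjusted p = 2.49e-10). NFKB1 (ENSG00000109320, chromosome 4, 102501329 to 102617302, plus strand), which encodes p105 and its product p50, measured 2.14, 2.04, 1.94, 2.06 and 2.05 FPKM in DMSO and 2.20, 2.05, 2.06, 2.20 and 2.15 in HPC. The groups overlapped: HPC libraries 2 and 3 lay within the DMSO range. The log2 fold change of NFKB1 was 0.06 ± 0.038 (adjusted p = 0.188), with a 95% interval of the fold from 0.981 to 1.10. Scaling to the non-mitochondrial sum turned it to -0.11 (adjusted p = 0.0199), and with quantile normalization it was 0.12 (adjusted p = 0.0132).

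REL (ENSG00000162924, chromosome 2, 60881521 to 60931610, plus strand), which encodes c-Rel, a subunit best known from lymphocytes, measured 2.33, 2.53, 2.10, 1.91 and 1.98 FPKM in DMSO and 2.49, 2.7, 2.42, 2.86 and 2.58 in HPC. DMSO library 2 lay above HPC libraries 1 and 3. The mean was 2.17 ± 0.259 and 2.61 ± 0.174 FPKM, and the log2 fold change of 0.26 ± 0.072 passed the test (adjusted p = 0.00434) as deposited but not with the non-mitochondrial sum (0.10, adjusted p = 0.205). In GENCODE 29, 43.3% of the merged exon bases of REL are also exon of the same-strand gene AC010733.2, so how its reads were assigned is uncertain. Of the other members, RELA shares 0.165% and TNFAIP3 1.88% of exon bases with a gene on the opposite strand, and 7 share none.

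**Figure D2:**
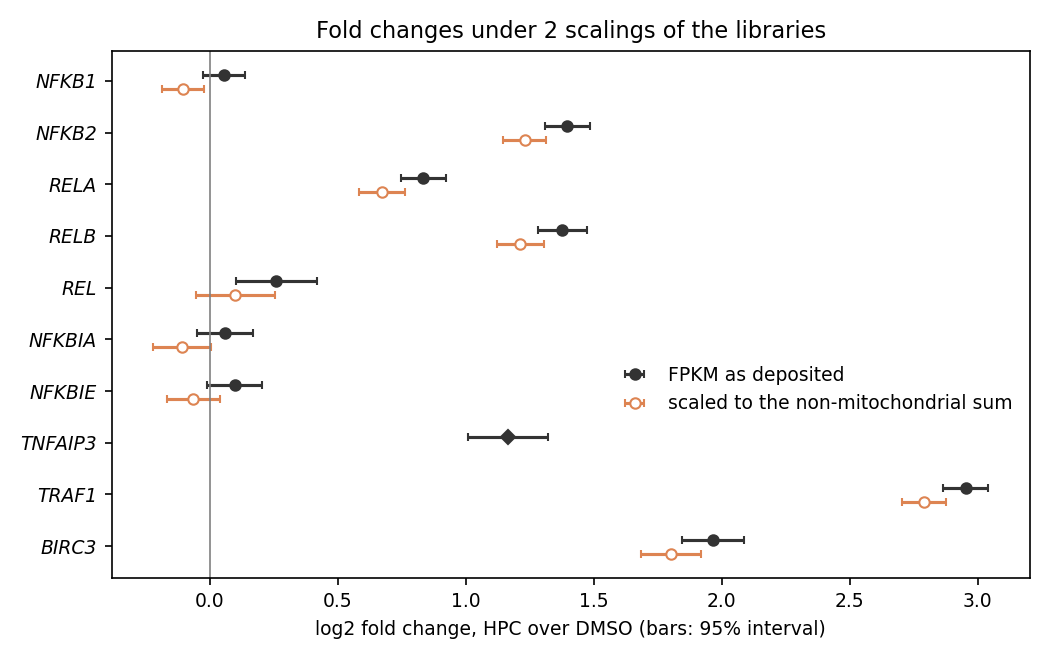
Log2 fold change of each member, HPC over DMSO, with its 95% interval, for FPKM as deposited (black) and with libraries scaled to the sum of genes not encoded by mitochondria (open orange); the diamond is TNFAIP3, fitted with no filter on low values. The second scaling lowers every tested member by a like amount, so that NFKB1, NFKBIA and NFKBIE move from just above 0 to just below it and REL comes to span 0.

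Neither IkB gene among the members passed the test. NFKBIA (ENSG00000100906, chromosome 14, 35401511 to 35404749, minus strand) encodes IkB-alpha, the inhibitor that NF-kB itself restores within a round of activation. It measured 13, 13.4, 15.4, 14.8 and 15.3 FPKM in DMSO and 14.7, 15.3, 15.4, 13.9 and 15.5 in HPC. DMSO libraries 1 and 2 were the lowest, and the other 3 lay among the HPC values. The means were 14.4 ± 1.11 and 15 ± 0.684 FPKM, with a log2 fold change of 0.06 ± 0.050 (adjusted p = 0.274) and an interval of the fold from 0.966 to 1.12, which holds values on both sides of no change and excludes the RELA fold of 1.78. NFKBIE (ENSG00000146232, chromosome 6, 44258166 to 44265788, minus strand), which encodes IkB-epsilon, a slower inhibitor of RELA and c-Rel dimers, measured 2.14, 1.97, 1.92, 2.00 and 2.00 FPKM in DMSO and 2.12, 2.17, 2.41, 2.04 and 2.04 in HPC. Only DMSO library 1 reached the HPC range. The log2 fold change of NFKBIE was 0.10 ± 0.049 (adjusted p = 0.0806, fold interval 0.993 to 1.15), and it passed without DMSO library 1 (0.12, adjusted p = 0.0420) and with quantile normalization (0.15, adjusted p = 0.0110). With the non-mitochondrial sum NFKBIA was at -0.11 (adjusted p = 0.0703) and NFKBIE at -0.06 (adjusted p = 0.229).

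TNFAIP3 (ENSG00000118503, chromosome 6, 137867188 to 137883312, plus strand) encodes A20, a ubiquitin-editing enzyme that shuts off signalling above IKK. It measured 0.430, 0.471, 0.357, 0.416 and 0.485 FPKM in DMSO and 1.13, 1.11, 1.13, 0.978 and 1.10 in HPC. The groups did not overlap, but only 4 libraries reached 1 FPKM, so TNFAIP3 was left out of the fit above. The low FPKM did not come with few reads: 712 to 842 were recovered per DMSO library and 1563 to 2042 per HPC library. The mean log2(FPKM + 0.1) differed by 1.17 (exact two-sided permutation p = 0.00794, the smallest that 5 against 5 libraries can give), and limma with no filter gave the same difference with an adjusted p of 4.92e-08. The pseudocount bears on a gene at this level: with a pseudocount of 1 the difference was 0.55, and from the recovered reads with voom it was 1.35.

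The largest changes were in the partners TRAF1 and BIRC3. TRAF1 (ENSG00000056558, chromosome 9, 120902393 to 120929173, minus strand) encodes an adaptor that joins TRAF2 at TNF receptors and brings in cIAP ligases. It measured 1.56, 1.52, 1.50, 1.50 and 1.49 FPKM in DMSO and 13.2, 13, 12.7, 11.5 and 11.7 in HPC. The DMSO libraries differed little from each other and every HPC library was more than 7-fold above every one of them. The log2 fold change was 2.95 ± 0.040 (means 1.51 ± 0.0280 and 12.4 ± 0.760 FPKM, adjusted p = 2.67e-15), and 0.678% of the tested genes had a larger one. BIRC3 (ENSG00000023445, chromosome 11, 102317450 to 102339403, plus strand) encodes cIAP2, a ubiquitin ligase that supports canonical signalling at TNF receptors and, with TRAF2 and TRAF3, keeps NIK low. It measured 4.67, 4.47, 3.77, 4.14 and 4.05 FPKM in DMSO and 16.9, 17.7, 16.8, 15.2 and 17.1 in HPC. The lowest HPC value was more than 3-fold the highest DMSO value, and the log2 fold change was 1.97 ± 0.056 (means 4.22 ± 0.357 and 16.7 ± 0.927 FPKM, adjusted p = 1.50e-12).

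To compare levels between genes, the length each FPKM was divided by was recovered from the table. For 76.3% of 15183 genes it was within 1% of the summed exon length of all the gene's GENCODE 29 transcripts, and for 6.28% within 1% of the length of its merged exons. A gene with many annotated transcripts is therefore listed low: RELA was divided by 30655 bases although its merged exons span 5464, and TNFAIP3 by 24244 against 5051. Fold changes between groups do not carry this divisor, apart from the pseudocount and the filter, but levels between genes do. The levels that follow are RPKM recomputed from the recovered reads, the merged exons and each library's total.

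On that merged exon RPKM scale NFKBIA was the highest member in both groups, at 56.8 ± 4.37 in DMSO and 59.1 ± 2.71 in HPC. In DMSO NFKB2 came next at 16.2 ± 0.901, followed by NFKB1 (10.6), BIRC3 (10.1), RELA (9.29) and RELB (8.72), each of whose range over libraries overlapped that of the next. NFKBIE (5.16) stood apart from its neighbours, and TRAF1 (2.90), REL (2.61) and TNFAIP3 (2.07) closed the order with neighbouring ranges that overlapped. In HPC NFKB2 (43.2 ± 1.72) and BIRC3 (39.9 ± 2.21) followed NFKBIA with overlapping ranges. TRAF1 (23.8) and RELB (23.1) overlapped as well, and below them RELA (17.0) and NFKB1 (11.0) each stood apart. NFKBIE (5.54) and TNFAIP3 (5.23) overlapped, and REL (3.13) was lowest. TRAF1 thus stood in position 8 of 10 in DMSO and in position 4 in HPC, and NFKB1 in position 3 and position 7. The level of REL, and its share and ratio below, use all its merged exon bases. Of these 43.3% are also exon of AC010733.2, so the place of REL in this order is uncertain.

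The 5 subunit genes summed to 47.4 ± 1.48 merged exon RPKM in DMSO and 97.5 ± 2.23 in HPC, and their make-up differed. NFKB1 held 21.5 to 23.0% of the sum in the DMSO libraries and 10.8 to 11.8% in the HPC libraries. NFKB2 held 33.0 to 35.4% and 43.3 to 45.5%, and RELB 17.9 to 19.6% and 22.5 to 25%. RELA went from 19.6% ± 1.49 to 17.4% ± 0.523 although its level was higher, and REL from 5.49% ± 0.495 to 3.22% ± 0.244. NFKBIA stood at 1.05 to 1.32 times the subunit sum in DMSO and 0.570 to 0.640 times in HPC. These shares are a description, with no test.

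**Figure D3:**
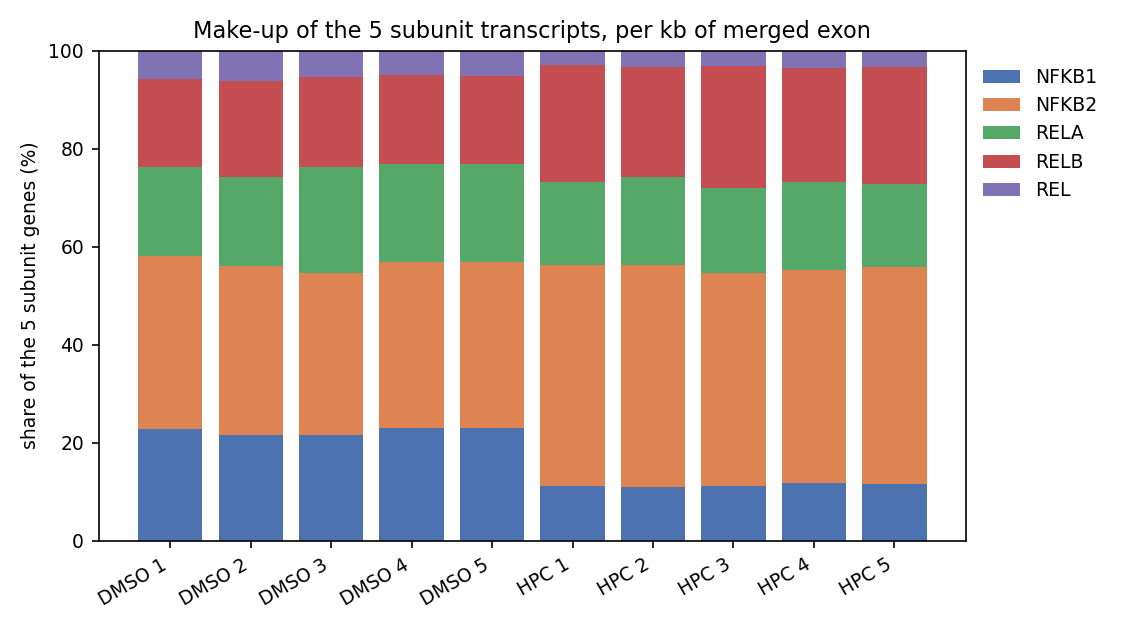
Share of each of the 5 subunit genes in their summed level (percent, recovered reads per kilobase of merged exon) in each library. The NFKB1 band at the bottom narrows from 22.4% on average in DMSO to 11.3% in HPC, and the NFKB2 band above it widens from 34.1 to 44.3%.

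Ratios of reads within a library do not depend on how libraries are scaled against each other; the test was made on ratios of FPKM + 0.1, in which the pseudocount leaves a part of that dependence for low genes. Of 7 such ratios, 6 passed an exact two-sided permutation test, each with p = 0.00794 and adjusted p = 0.00926 over the 7, with no overlap between the groups. The ratios share members and are not independent of each other. Ratios of other gene pairs were not computed for comparison. Among all tested genes, 38.5% had every HPC value above every DMSO value and 41.1% had every one below. The count of 6 by itself therefore does not set these ratios apart. On the tested scale the log2 ratio of NFKB2 to NFKB1 was 1.34 higher in HPC (1.36 in recovered reads), and in reads per kilobase of merged exon, with no pseudocount, the ratio went from 1.53 ± 0.0588 to 3.92 ± 0.196. RELB to RELA was 0.54 higher on both log2 scales (0.942 ± 0.0944 and 1.36 ± 0.0812 per kilobase), while REL to RELA was lower, at -0.57, or -0.60 in recovered reads (0.282 ± 0.0434 and 0.184 ± 0.0110 per kilobase).

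Among the inhibitor ratios, NFKBIA to RELA was lower in HPC, at -0.77 on the tested scale and -0.81 in recovered reads, going from 6.11 ± 0.284 to 3.49 ± 0.243 NFKBIA reads per RELA read, both per kilobase. TNFAIP3 to NFKBIA was 1.11 higher on the tested scale, 0.49 with a pseudocount of 1 and 1.28 in recovered reads, where it went from 0.0367 ± 0.00572 to 0.0885 ± 0.00304 per kilobase. The ratio of NFKBIE to NFKBIA, the 2 IkB genes, differed by 0.04 with overlapping groups (exact permutation p = 0.659, adjusted p = 0.659), at 0.0914 ± 0.0103 and 0.0937 ± 0.00591. BIRC3 to TRAF1 was lower, at -0.99 on the tested scale, -0.65 with a pseudocount of 1 and -1.04 in recovered reads. Per kilobase BIRC3 stood at 3.46 ± 0.239 times TRAF1 in DMSO and 1.68 ± 0.0814 times in HPC.

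**Figure D4:**
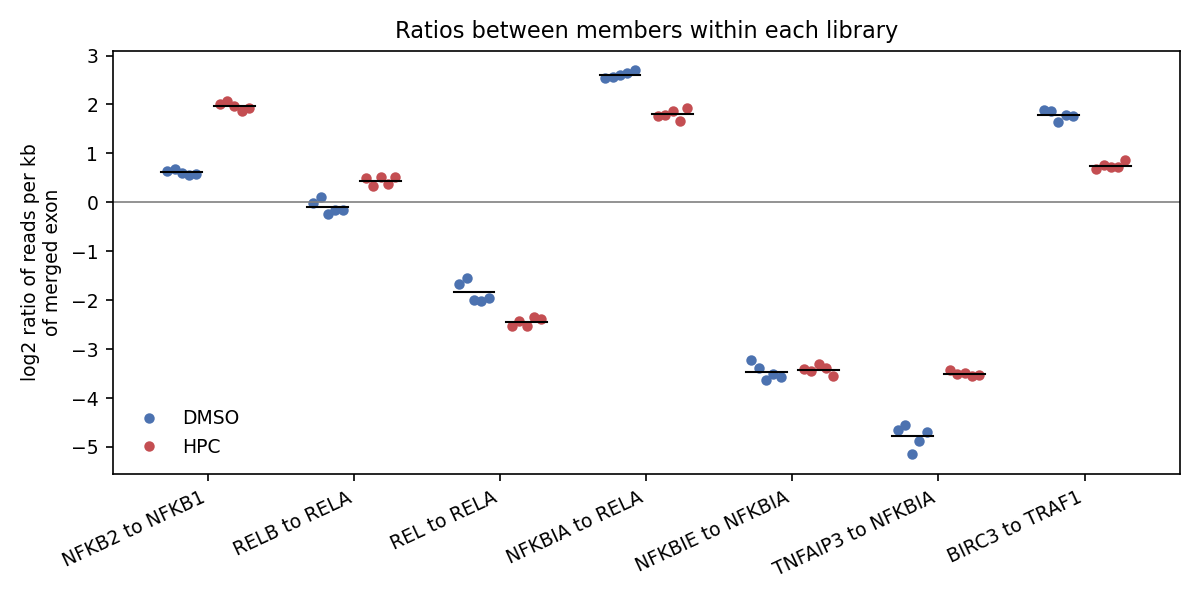
Log2 ratio of 7 pairs of members within each library, in recovered reads per kilobase of merged exon, DMSO in blue and HPC in red, black lines at the group means. The 2 groups lie apart in every pair except NFKBIE to NFKBIA.

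The rest of the pathway was read from lists of genes by role, whose counts stand against 42.9% higher and 44.8% lower over all tested genes. Scaled to the non-mitochondrial sum, 2957 of the 9150 genes were called higher and 5015 lower. Without the filter 5220 genes were called higher and 6060 lower, and with merged exon lengths 4417 and 4854, both over more genes than 9150. List counts under those settings stand against these counts. The IKK complex and its activating kinases had 7 tested genes, and 6 of them passed as higher and 1 as lower (median 0.37 on the log2 scale, 0.21 with the non-mitochondrial sum). With no filter 7 were called higher and 3 lower of 10. TAB3, an adaptor of the kinase TAK1, went from 2.18 ± 0.0966 to 3.90 ± 0.0835 FPKM (log2 fold change 0.81, adjusted p = 1.11e-10). CHUK, which encodes IKK-alpha, went from 5.03 ± 0.0882 to 6.85 ± 0.212 FPKM (0.44, adjusted p = 5.55e-09). MAP3K7, which encodes TAK1 itself, measured 4.54 ± 0.115 and 4.77 ± 0.154 FPKM (0.07, adjusted p = 0.0462), a call kept under 11 of 21 alternatives. It was lost with TPM rescaling, the replicate block and 7 of the 10 libraries left out singly (DMSO 2, 3 and 5 and HPC 1, 3, 4 and 5), and with the non-mitochondrial sum MAP3K7 was called lower, at -0.09 (adjusted p = 0.0147). TAB1 was the lower one, falling from 3.44 ± 0.391 to 2.04 ± 0.176 FPKM (-0.72, adjusted p = 1.06e-06). IKBKB, which encodes IKK-beta, measured 0.598 ± 0.0207 FPKM in DMSO and 0.529 ± 0.0110 in HPC (2741 to 3232 and 2221 to 2591 reads). IKBKG, which encodes NEMO, measured 0.670 ± 0.0304 and 0.879 ± 0.0327 FPKM (902 to 1111 and 1120 to 1311 reads). IKBKB and IKBKG were under 1 FPKM in every library and were not tested. Nor was IKBKE, which encodes the IKK-related kinase IKK-epsilon, at 0.880 ± 0.0615 FPKM in DMSO and 0.0673 ± 0.0290 in HPC (631 to 832 and 27 to 81 reads). These 3 and MAP3K14 are named after their values were seen. MAP3K14, which encodes NIK, went from 1.01 ± 0.0516 to 1.39 ± 0.0744 FPKM (0.42, adjusted p = 2.42e-06).

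Of 4 tested genes of other IkB proteins, 3 were higher and 1 did not pass (median 0.68, or 0.52 after scaling to the non-mitochondrial sum). The fit with no filter called 3 of this list higher and 1 lower. NFKBIB, which encodes IkB-beta, went from 1.49 ± 0.0507 to 4.73 ± 0.392 FPKM (1.60, adjusted p = 5.18e-12), a larger log2 fold change than that of either IkB gene among the members. NFKBIZ, a nuclear IkB, went from 1.40 ± 0.152 to 2.55 ± 0.253 FPKM (0.83, adjusted p = 4.42e-07), and NFKBIL1 from 1.56 ± 0.118 to 2.32 ± 0.30 (0.53, adjusted p = 4.95e-05). BCL3, a nuclear partner of p50 and p52, measured 1.89 ± 0.176 and 1.71 ± 0.167 FPKM (-0.14, adjusted p = 0.0914). BCL3 was called lower with the non-mitochondrial sum, at -0.30 (adjusted p = 0.00161), with TPM rescaling and without DMSO library 5 or HPC library 5.

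Of 14 tested receptor adaptors and ubiquitin ligases 9 passed as higher and 4 as lower, leaving 1 (median 0.32; 0.15 with the non-mitochondrial sum, with 7 higher and 4 lower). TIRAP, 1 of the 9, reached 1 FPKM only in HPC, where it was high; of the 13 others 8 were higher and 4 lower, with a median of 0.25. With no filter, and with merged exon lengths, 9 were called higher and 8 lower. BCL10, which links antigen and other receptors to IKK, went from 6.76 ± 0.451 to 32.1 ± 0.988 FPKM (2.23, adjusted p = 4.03e-14). RBCK1, which encodes the HOIL-1 subunit of the linear ubiquitin ligase, went from 2.55 ± 0.0918 to 5.74 ± 0.306 FPKM (1.14, adjusted p = 1.25e-11). TRAF2 and TRAF3, the partners of TRAF1 and cIAP2, were both lower. TRAF2 fell from 3.25 ± 0.0876 to 2.24 ± 0.168 FPKM (-0.52, adjusted p = 2.46e-07) and TRAF3 from 2.83 ± 0.121 to 2.34 ± 0.0912 FPKM (-0.26, adjusted p = 3.00e-05).

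Negative regulators outside the members had 11 tested genes, of which 8 passed as higher, 1 as lower and 2 not at all (median 0.39; 0.23 with the non-mitochondrial sum, with 8 higher and 3 lower). With no filter 8 were higher and 2 lower. TAX1BP1, which works with A20, went from 7.98 ± 0.129 to 17.6 ± 0.257 FPKM (1.13, adjusted p = 5.22e-14). OTUD7B, a deubiquitinase that acts on TRAF3, went from 3.20 ± 0.0747 to 6.33 ± 0.326 FPKM (0.96, adjusted p = 2.73e-11). TNIP1, an A20-binding protein, measured 3.12 ± 0.203 and 2.88 ± 0.0623 FPKM (-0.11, adjusted p = 0.0329), a call kept under 15 of 21 alternatives and lost without DMSO library 1 or 2, without HPC library 1, 3 or 5, and with quantile normalization. ZC3H12A, which encodes the RNase Regnase-1, measured 2.96 ± 0.249 and 2.76 ± 0.166 FPKM (-0.09, adjusted p = 0.156), and was called lower with the non-mitochondrial sum (-0.25, adjusted p = 0.000954) and without DMSO library 5.

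Of 7 tested receptors, 3 were higher, 3 lower and 1 did not pass, which is 42.9% in each direction and near the shares over all tested genes, with a median of 0.04 that turned to -0.12 with the non-mitochondrial sum. TNFRSF12A, the receptor for TWEAK, went from 3.25 ± 0.200 to 18.4 ± 1.64 FPKM (2.47, adjusted p = 5.12e-13), and TNFRSF21, a death receptor, from 1.96 ± 0.106 to 7.37 ± 0.368 (1.86, adjusted p = 2.53e-13). TNFRSF1B, the second TNF receptor, fell from 3.40 ± 0.275 to 0.694 ± 0.10 FPKM (-2.15, adjusted p = 3.00e-11), and the interleukin-1 receptor IL1R1 from 9.57 ± 0.871 to 3.22 ± 0.169 FPKM (-1.54, adjusted p = 2.32e-11). TNFRSF1B entered the test only through its DMSO libraries, where it was high, and without it 3 of 6 were higher and 2 lower. With no filter 5 receptors were called higher and 4 lower.

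Only 3 of 12 ligand genes were tested. TNFSF9, the 4-1BB ligand, went from 1.70 ± 0.139 to 7.09 ± 0.829 FPKM (2.00, adjusted p = 3.99e-11). IL1A (0.837 ± 0.147 and 4.48 ± 0.430 FPKM, 2.30, adjusted p = 5.65e-10) and IL1B (0.573 ± 0.0782 and 1.62 ± 0.15 FPKM, 1.36, adjusted p = 2.77e-09) were under 1 FPKM in every DMSO library. They passed the filter only through the group where they were high, so the list's count of 3 higher and its median of 2.00 are a description. With no filter 5 ligands were called higher and 2 lower. TNF itself was not tested, at 0.182 ± 0.0606 and 0.251 ± 0.0737 FPKM.

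Of 22 tested target genes outside the members and the chemokines, 11 were higher, 9 lower and 2 did not pass. Their median of 0.04 turned to -0.13 with the non-mitochondrial sum, with 10 higher and 11 lower. F3, 1 of the 11, reached 1 FPKM only in HPC, where it was high; of the 21 others 10 were higher and 9 lower, with a median of -0.04. These shares are also near those over all tested genes. The fit with no filter called 13 of the target genes higher and 10 lower. TNIP1, CYLD and BCL3 are counted here and also above, TNIP1 and CYLD among the negative regulators and BCL3 among the other IkB proteins. IER3, an early stress response gene, went from 1.51 ± 0.154 to 9.26 ± 0.290 FPKM (2.54, adjusted p = 1.27e-13), and GADD45B, a stress sensor that restrains JNK signalling, from 1.20 ± 0.161 to 7.19 ± 0.933 (2.48, adjusted p = 2.27e-10). CD44, the hyaluronan receptor, fell from 39.6 ± 0.666 to 17.4 ± 0.110 FPKM (-1.18, adjusted p = 1.45e-14), and CD83 from 3.36 ± 0.407 to 0.929 ± 0.144 (-1.75, adjusted p = 5.43e-09). Of 9 chemokine and cytokine genes 5 were tested, of which 4 were higher and 1 did not pass (median 1.57). The untested ones were under 1 FPKM in every library. The fit with no filter called 4 genes of this list higher and 1 lower. CXCL8 had a log2 fold change of 2.82 (adjusted p = 3.12e-14), LIF of 2.45 (adjusted p = 1.72e-14) and CXCL3 of 1.38 (adjusted p = 3.00e-11), whereas CXCL1 measured 55.7 ± 3.17 and 54.4 ± 5.39 FPKM (-0.04, adjusted p = 0.608; called lower, at -0.20, with the non-mitochondrial sum and, at -0.21, with quantile normalization).

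**Figure D5:**
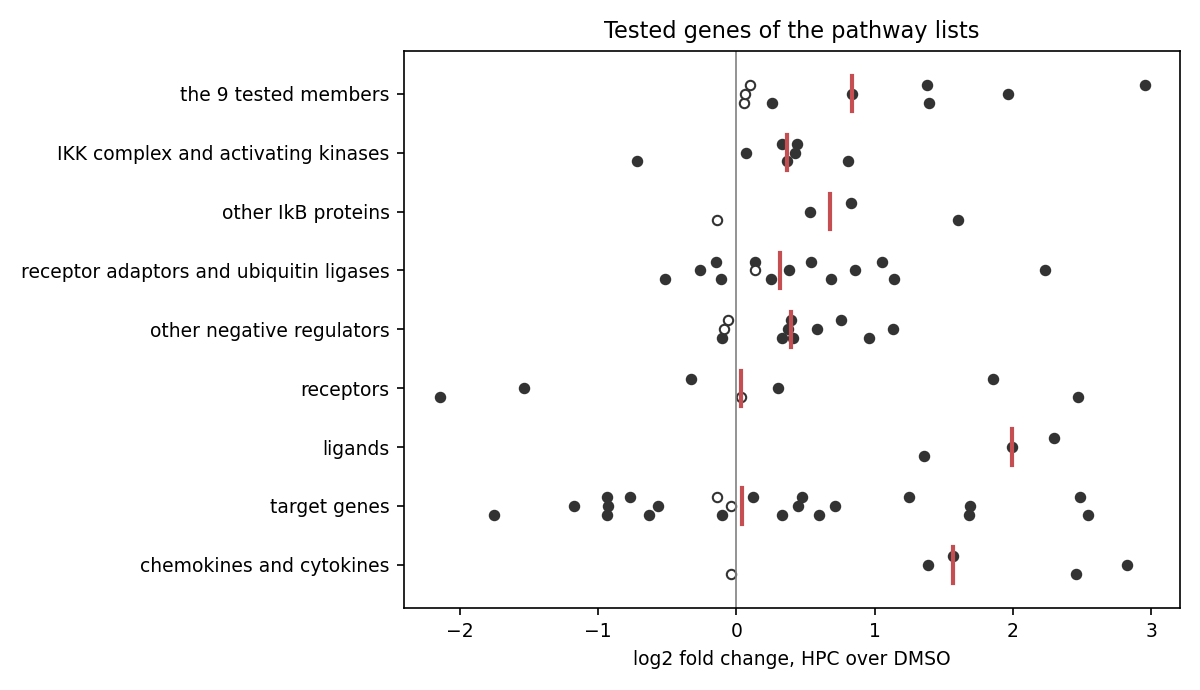
Log2 fold change, HPC over DMSO, of each tested gene of the members and of 8 pathway lists; filled points were called, open points were not, and red lines are list medians. Receptors and target genes lie on both sides of 0 with medians of 0.04, and the medians of the 9 tested members and of the chemokines and cytokines are 0.83 and 1.57.

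The genes whose pattern over the 10 libraries was most like that of TRAF1, by root mean square difference of log2 values centred on the DMSO mean, were RHOB (0.0562), EPGN (0.0752) and SGTB (0.0858). RHOB, a small GTPase, measured 12.1 ± 0.802 and 92.8 ± 5.96 FPKM, EPGN, an EGF receptor ligand, 2.34 ± 0.179 and 18.1 ± 0.674, and SGTB 3.75 ± 0.211 and 29.3 ± 0.627. For NFKB1, the tested member with the smallest log2 fold change, they were PTGES3 (0.0273), CLK3 (0.0283) and ORC3 (0.0348), whose log2 fold changes were 0.05, 0.06 and 0.05.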

How the data were processed

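The authors deposited 1 table of FPKM for 16734 genes, 344 of them without a name, in 10 poly(A)-selected libraries, 5 per group. Per the submitters' processing notes, the tools were edgeR (no version named), STAR 2.7.7a and fastp 0.23.2 on build GRCh38.p13, with no roles. The counter, annotation and filters were not given in the sources used here.

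Columns were matched to samples by the library names in the labels. From these FPKM, limma 3.58.1 (R 4.3.3) was fitted to log2(FPKM + 0.1) with trend and robust options and no covariate, on genes that reached 1 FPKM in 5 or more libraries. Whole reads were recovered from the FPKM steps for 15208 of 15208 genes above 0 in at least 3 libraries, within 0.0001 read. Recovered reads served for depth, for levels per merged exon and for voom. Single values used exact permutation tests over the 252 assignments, whose smallest p is 0.00794. Libraries of a group differed beyond counting noise (chi-square per degree of freedom 13.2 to 32.0). The fit was also run on simulated data in which few genes changed and noise was independent. Those settings differ from these data, so that run checked the code only.

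The members and all gene lists were chosen with earlier results of these data known. Named genes are the 10 members; from each list the 2 tested genes with the largest and the 2 with the smallest log2 fold change, or all where 4 or fewer were tested; and the 3 genes most like the tested members with the largest and the smallest change. Besides these, IKBKB, IKBKG, IKBKE, MAP3K14, TIRAP, TNF and F3 are named after their values were seen. Alternatives covered the pseudocount, filter, scaling, model, the block and each library left out. Merged exon lengths, and voom with no filter for TNFAIP3, were added after seeing the data. The values of 1 leukocyte marker are not reported here.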

Additional observations from a re-analysis of the deposited data

Results flagged for a closer look

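Of 34 groups of 5 values examined, 1 held a value far from the other 4: TNFAIP3 in HPC library 4, at 0.978 FPKM where the other HPC libraries measured 1.10 to 1.13. The cutoff used, a gap of 0.71 of the range of the 5 values, is passed by chance in about 1 in 20 groups. The gap seen here was 0.830 of the range. The difference of TNFAIP3 between the groups was 1.20 on the log2 scale without that library and 1.17 with it.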

How the results depend on the processing

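NFKB2, RELA, RELB, TRAF1 and BIRC3 were called higher under all alternatives that tested them, at 1.23 to 1.42, 0.60 to 0.89, 1.14 to 1.41, 2.41 to 3.03 and 1.77 to 2.00 on the log2 scale, and TNFAIP3 ranged from 0.55 to 1.35. The ratio of TNFAIP3 to NFKBIA ranged from 0.49 to 1.28 and that of BIRC3 to TRAF1 from -1.04 to -0.65, the ends nearest 0 with a pseudocount of 1. With the non-mitochondrial sum 1 member, NFKB1 (-0.11), was called lower, NFKBIA turned to -0.11 and NFKBIE to -0.064 without a call, and REL lost its call (0.10). NFKB1 and NFKBIE were called with quantile normalization (0.12 and 0.15), so that members called higher ranged from 4, with the filter at 5 FPKM, which tested fewer genes, to 8. That filter gave 1969 genes higher and 1836 lower. Leaving out an HPC library took IL1A and IL1B below the filter, which left 1 ligand called.

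The labels do not say whether libraries of the same number were paired. Same-number correlations of deviations ran from -0.0593 to 0.199, and 4 of 10 libraries correlated best with their own number. Recovered reads ranked the libraries in the same order of number in both groups. These values do not settle whether the numbers pair the libraries. Members called higher under the replicate block are among the counts above. With the replicate block as an exact sign-flip test of the ratios, whose smallest p is 0.0625 and cannot pass, the differences were 1.34 (NFKB2 to NFKB1), 0.54 (RELB to RELA), -0.57 (REL to RELA), -0.77 (NFKBIA to RELA), 1.11 (TNFAIP3 to NFKBIA) and -0.99 (BIRC3 to TRAF1), each with adjusted p = 0.0729. NFKBIE to NFKBIA ran from -0.0038 (without DMSO library 3) to 0.093 (without DMSO library 1) with 1 library left out, with no call. Each member had at least 712 reads in every library, and changes near 0 depend on the scaling.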
